A study of Mus musculus with 18 samples.

Results

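Transcripts of 29 genes of the peroxisome were measured in BMC brown adipocytes, 11 peroxins that build the organelle and 18 enzymes and transporters that work in it. They were selected by gene symbol from the 45706 genes of the count table, with earlier results of these data known. A filter on low counts kept 14788 genes, among them all 11 peroxins and 16 of the 18 enzymes. Below it lay Acot4, with 0 to 2.01 counts per library, and Acot3, at 0 in all 18 libraries.

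BMC is an immortalised line of mouse brown preadipocytes, here differentiated into fat cells with insulin, triiodothyronine, dexamethasone, indomethacin and isobutylmethylxanthine, which every group received. On day 7 the cells were either not induced (0 h) or taken 4 h or 24 h after addition of 1 µM norepinephrine, the sympathetic transmitter that starts lipolysis. Each group has 6 libraries of total RNA with replicate numbers 1 to 6 in their titles. No label ties the libraries of a group to separate cultures. The p-values below therefore reflect library-to-library spread, possibly of technical origin. All cells belong to 1 line.

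Peroxisomes shorten very long and branched fatty acids that mitochondria handle poorly, pass the shortened products on, and release hydrogen peroxide, which catalase removes. Peroxins insert the membrane proteins, carry enzymes across the membrane with cycling receptors, and pull those receptors back out for reuse. Brown fat is known to gain peroxisomes when it is activated by cold, and several oxidation enzymes are known targets of the fatty acid receptor PPARα.

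The members are described by labelled time and also by number set, meaning libraries numbered 1 and 4, 2 and 5, or 3 and 6, with 6 libraries in each set and 2 of every labelled time. Numbers 3 apart were joined because an earlier reading of these data found such libraries alike over all genes. No label ties a number to a culture or a day. The sets thus come from the same libraries, and their p-values describe the size of a difference beside the spread within sets and are read against the share of all genes called. Nr4a1, an immediate early gene that adrenergic signals induce, had 5.35, 11.2 and 84.2 CPM as lowest, median and highest value at 0 h, 5.61, 10.2 and 141 at 4 h, and 6.04, 10.1 and 135 at 24 h. By set the same gene ranged from 81.4 to 141 CPM in numbers 1+4, from 8.82 to 12.1 in 2+5 and from 5.35 to 6.90 in 3+6. Its labelled times overlapped and its sets did not. Compared within replicate numbers, as a block in edgeR, 13 of the 16 norepinephrine response genes were above 0 h at 4 h (median log2 0.14) and 13 of 16 at 24 h (median log2 0.19). None passed an adjusted p of 0.05. At an unadjusted p under 0.05 stood 6 and 7 of the 16, beside 1461 and 1155 of all 14788 genes.

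Libraries held 7010742 to 26501223 expected counts, with a median of 21226304. One library stood apart: in 24 h replicate 5, 2 transcripts that collect ribosomal RNA reads took 41.5% of counts, against 6.78% to 10.6% in the others. The 29 members took 0.0706% of its counts, against 0.128% to 0.186% elsewhere. CPM, the usual library-normalised read counts, use totals corrected by edgeR's TMM factors (trimmed mean of M values), which offset that share (factor 0.430). Of 13 brown adipocyte markers 12 passed the filter and none was at 0 in all libraries. The 13 summed to 3651 to 4718 CPM per library. The largest parts were Fabp4 (mean 2301 CPM), Adipoq (603) and Pnpla2 (524). The lowest means were those of Cidea (14.4), Prdm16 (11.1), Ucp1 (9.34), Dio2 (1.08) and Elovl3 (0.309), so the sum says little about these. By set the sums were 4424 to 4690 CPM in numbers 1+4, 3651 to 4269 in 2+5 and 3902 to 4718 in 3+6. Those of 1+4 and 2+5 did not overlap. Ucp1, the uncoupling protein, had 12.8 to 18.03 CPM in numbers 1+4, 9.35 to 10.9 in 2+5 and 1.08 to 2.65 in 3+6. Ucp1 does not stand for the list. In 3+6 against 1+4, 4 of the 12 markers tested were called higher and 5 lower (median log2 -0.02). Markers of macrophages, endothelium, skeletal muscle and hepatocytes summed to at most 4.25 CPM each, with Adgre1, Cdh5, Myod1, Myf5 and Ttr at 0 throughout.

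Other lists moved with the sets as well. The 10 preadipocyte and fibroblast markers, 7 of them past the filter, summed to 821 to 958 CPM in numbers 1+4, 1055 to 1521 in 2+5 and 1570 to 1967 in 3+6. The largest parts of that sum were the collagens Col1a1 (mean 618 CPM) and Col3a1 (440). Dlk1, Cd34, Ly6a, Thy1, Dpp4 and Pi16 had means of at most 2.14 CPM, so the sum says little about them. The 16 norepinephrine response genes, all past the filter, summed to 2003 to 2760, 655 to 864 and 519 to 569 CPM. Large parts of that sum were Egr1 (mean 509 CPM) and Pdk4 (231). Of the 16, 4 were called higher and 10 lower in 2+5 against 1+4. In 3+6 it was 1 and 11 against 1+4, and 2 and 12 against 2+5. Of the 12 brown adipocyte markers tested, 11 were called in 2+5 against 1+4, 4 higher and 7 lower. In 3+6 against 1+4, 9 were called, 4 higher and 5 lower. In 3+6 against 2+5, 10 were called, 7 higher and 3 lower. The share of all genes called was 59.5%, 59.7% and 57.1% in these comparisons. Skeletal muscle markers, of which 1 of 6 passed the filter, summed to 3.52 to 4.25, 2.22 to 3.05 and 0.599 to 1.24 CPM. The part of these lists in the differences of the members was not tested. Nor can fewer cells of a type be told apart from less RNA per cell in such bulk samples.

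Catalase had the most RNA of any single member, and its level followed the number sets. Cat, the enzyme that splits hydrogen peroxide (chromosome 2, 103453849 to 103485160, mm10), was the most abundant member per length of annotated exons, at 170 ± 60.1 CPM per kb over the 18 libraries (SD). The next in that order were Ech1 (37.2 ± 4.48), Scp2 (34.7 ± 3.44) and Hsd17b4 (25.6 ± 2.01), and Ehhadh was the lowest of those tested (1.11 ± 0.298). In numbers 1+4 Cat had 267, 281 and 304 CPM as lowest, median and highest value, in 2+5 607, 655 and 675, and in 3+6 361, 413 and 427. No library of one set reached the range of another. The level in 2+5 was 2.29 times that in 1+4 (log2 1.19, SE 0.04, edgeR adjusted p = 9.1e-19), and the level in 3+6 1.43 times (log2 0.51, SE 0.04, adjusted p = 4.7e-11). As a share of the members' counts, which does not depend on scaling, Cat made up 20.8 ± 0.653%, 37.6 ± 0.544% and 29.2 ± 0.502% (SD, n = 6 per set).

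Promoter sequence is shown for the members with a log2 difference of at least 0.7 in size between sets and a promoter in the RefSeq table (GRCm38.p6, the mm10 build), to let a reader see which common motifs lie in front of them. The 250 bases before the start are given, on the gene's strand, without parts that annotated exons cover. For Pex16 the first of its 2 listed starts is used. Capitals mark the CCAAT box on either strand, likewise the GC box with the letters GGGCGG, and the core of a cAMP response element, TGACG. Longer runs of capitals are overlapping matches.
Cat, chr2:103485161-103485403, minus strand: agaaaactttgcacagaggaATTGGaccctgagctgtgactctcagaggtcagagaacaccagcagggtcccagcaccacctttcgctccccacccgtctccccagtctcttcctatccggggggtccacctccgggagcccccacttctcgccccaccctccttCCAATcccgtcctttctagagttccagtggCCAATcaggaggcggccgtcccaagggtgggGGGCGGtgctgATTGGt
Ehhadh, chr16:21787835-21788084, minus strand: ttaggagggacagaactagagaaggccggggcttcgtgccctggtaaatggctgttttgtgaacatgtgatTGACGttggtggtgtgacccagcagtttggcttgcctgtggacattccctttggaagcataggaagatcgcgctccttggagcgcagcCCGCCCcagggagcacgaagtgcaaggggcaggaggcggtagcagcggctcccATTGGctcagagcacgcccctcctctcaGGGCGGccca
Pex16, chr2:92374426-92374675, plus strand: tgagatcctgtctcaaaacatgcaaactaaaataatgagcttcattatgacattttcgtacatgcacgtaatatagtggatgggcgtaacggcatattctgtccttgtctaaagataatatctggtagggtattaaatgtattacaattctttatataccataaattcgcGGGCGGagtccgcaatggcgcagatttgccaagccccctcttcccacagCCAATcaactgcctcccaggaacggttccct
Pex13, chr11:23665960-23666006, minus strand: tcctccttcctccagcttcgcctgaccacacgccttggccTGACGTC
The Cat window holds 4 CCAAT matches and 1 GC box, and the Pex13 window is short because exons of Pex13 and Pus10 cover the rest. Of the members 24 had a promoter in the table that could be used. Some had more than 1 start, and a member was counted if any of its starts had a match. The shares of all are per promoter, which is not a like measure. CCAAT was found before 12 of the 24 members (33.8% of all 32851 promoters), the GC box before 16 (32.7% of all) and TGACG before 9 (17.8% of all). A pair of AGGTCA sites 1 base apart, the form that PPAR dimers bind, allowing 1 mismatch in each, was found before 0 of the 24 (1.98% of all). These are matches of letters in a short window and no evidence of a bound site.

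Of the 27 members tested, 21 (77.8%) passed between numbers 2+5 and 1+4, 21 between 3+6 and 1+4, and 18 (66.7%) between 3+6 and 2+5. Calls were common over the whole transcriptome, at 59.5%, 59.7% and 57.1% of all genes. By direction 29.6% of all genes were called higher and 29.9% lower in 2+5 against 1+4, 30.2% and 29.5% in 3+6 against 1+4, and 28.6% and 28.5% in 3+6 against 2+5. What the members did within that is described by role. Levels in all 3 sets stayed apart, with no overlap between any pair, for 5 of the 27 members (Cat, Abcd2, Acox3, Acaa1a and Pex13) and for 7.43% of all genes. The sets accounted for a median of 65.9% of a peroxin's variance in log2 CPM and 70.8% of an enzyme's, beside 62.7% over all genes tested, and the labelled times for 2.63%, 1.16% and 3.78%.

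**Figure D1:**
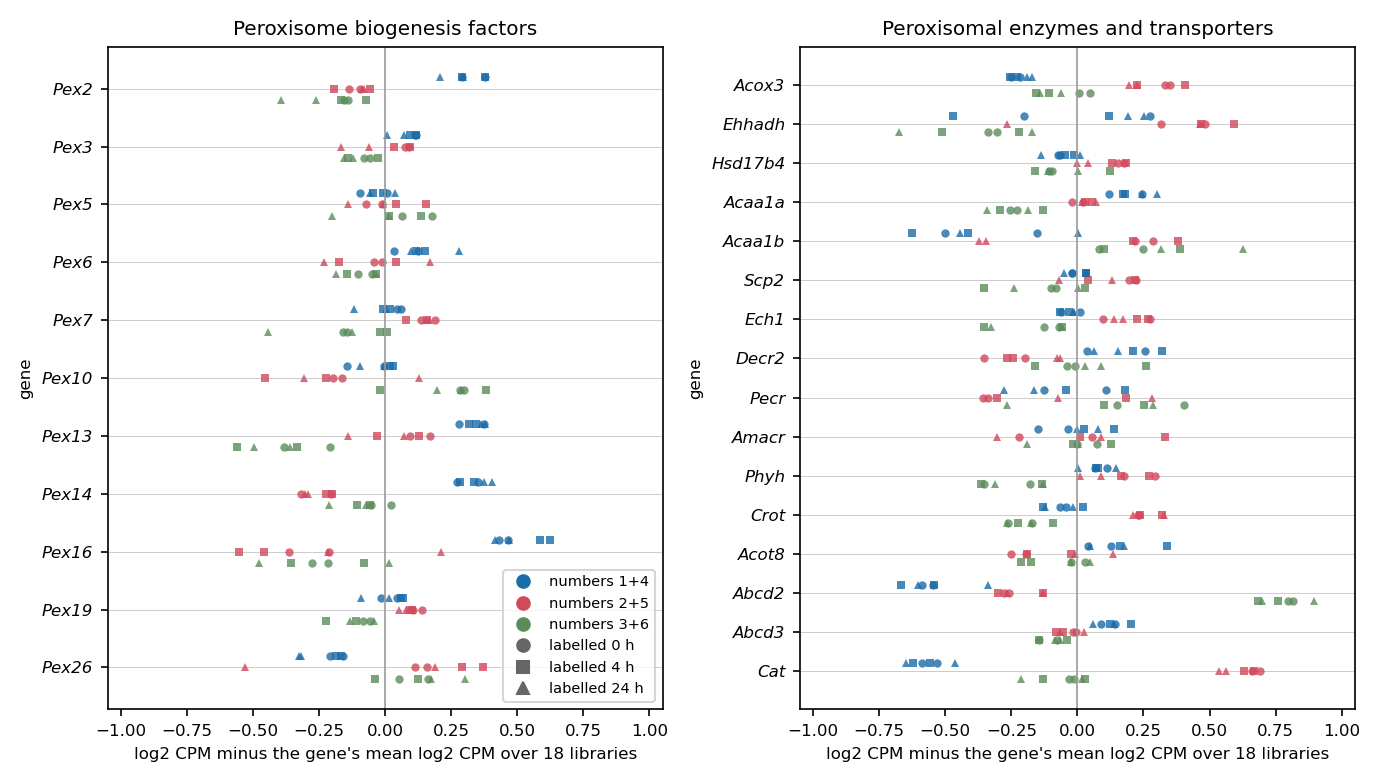
Log2 CPM of each member tested in each of the 18 libraries, minus the gene's own mean, with peroxins on the left and enzymes on the right, colours for the number sets and symbols for the labelled times. Cat, Abcd2, Acox3, Acaa1a and Pex13 split into 3 ranges by set, while circles, squares and triangles of 1 colour lie together.

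Peroxins were mostly lower outside numbers 1+4, except that with library totals over all libraries 2 were called higher and 2 lower in 3+6. Of 11, 2 were called higher and 6 lower in 2+5 (median log2 -0.19), 2 higher and 8 lower in 3+6 (median -0.18), and 2 higher and 4 lower in 3+6 against 2+5 (median -0.05), where the median of all genes was 0.00 in each. Scaled to library totals without 24 h replicate 5, a choice made after the data were seen, the calls were 3 and 6, 3 and 4, and 4 and 2, with medians of -0.16, -0.03 and 0.04. That scaling moved the median of all genes by 0.04, 0.16 and 0.11, so differences of the peroxins in the comparisons with 3+6 are relative to most other genes, and the lower values of Pex3 and Pex6 in 3+6 against 1+4 then did not pass. Their summed level was 440 ± 7.02 CPM in 1+4, 387 ± 7.77 in 2+5 and 357 ± 16.4 in 3+6 (SD, n = 6). Scaled to library totals without 24 h replicate 5, the sums were 441 ± 20.0 in 1+4, 402 ± 10.8 in 2+5 (n = 5) and 399 ± 15.1 in 3+6. The lower sum in 3+6 than in 2+5 thus depends on the scaling.

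Both subunits of the docking complex described here, on which loaded receptors land, were lower outside 1+4. Pex14, its central subunit (chromosome 4, 148960535 to 149099876), had 56.3, 59.2 and 61.8 CPM in 1+4, 37.5, 39.0 and 40.6 in 2+5, and 40.3, 44.6 and 47.5 in 3+6. All libraries of 1+4 lay above all others, and the other sets overlapped. It was lower by log2 -0.59 in 2+5 (SE 0.04, edgeR adjusted p = 1.7e-12) and -0.41 in 3+6 (SE 0.04, adjusted p = 7.3e-10). Pex13, its membrane partner with an SH3 domain (chromosome 11, 23646479 to 23665959), had 92.7, 97.6 and 99.4 CPM in 1+4, 69.3, 80.9 and 85.9 in 2+5, and 51.8, 59.1 and 66.2 in 3+6. Here each set stood below the one before, by log2 -0.28 (SE 0.05, adjusted p = 9.0e-06) and then -0.45 (SE 0.05, adjusted p = 5.7e-09), and 3+6 was lower than 1+4 by log2 -0.72. The partners thus did not keep a fixed ratio: Pex13 had 1.64 ± 0.036 times the CPM of Pex14 in 1+4, 2.03 ± 0.172 in 2+5 and 1.32 ± 0.0697 in 3+6. Exons of Pus10 overlap Pex13 on the other strand with a mean of 639 counts, and a pseudogene shares 4.05% of its 31-base words, so the level of Pex13 carries that uncertainty.

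Among the factors of the peroxisomal membrane, Pex16 had the largest differences. Pex16, which recruits Pex3 and membrane proteins (chromosome 2, 92374676 to 92381217), had 19.1, 19.8 and 22.0 CPM in 1+4, 9.75, 11.7 and 16.6 in 2+5, and 10.3, 12.1 and 14.5 in 3+6. It was lower by log2 -0.81 (SE 0.08, edgeR adjusted p = 1.4e-08) and -0.72 (SE 0.08, adjusted p = 2.9e-08), with no overlap with 1+4. Pex3, the docking site for imported membrane proteins, lay within 23.2 to 28.2 CPM throughout. It was lower in 3+6 than in 1+4 (log2 -0.18, SE 0.04, adjusted p = 1.9e-04), and its lower value against 2+5 (log2 -0.12) became 0.14 with library totals and -0.015 with library totals and no 24 h replicate 5. Pex19, the soluble chaperone of those proteins and the most abundant peroxin per length (20.0 ± 1.36 CPM per kb), ranged from 65.1 to 83.6 CPM. Its values in 3+6, log2 -0.12 from 1+4 and -0.20 from 2+5, turned to 0.05 and 0.07 with library totals, and to 0.04 and -0.08 without 24 h replicate 5 as well, passing in neither, so no direction is given for it.

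The receptors of matrix enzymes had small differences. Pex5, which binds most of those enzymes, had 35.9 to 39.3 CPM in 1+4, 34.8 to 42.7 in 2+5 and 33.3 to 43.4 in 3+6. It passed in none of the comparisons (log2 0.04, 95% interval -0.07 to 0.14, and log2 0.07, -0.03 to 0.17, against 1+4), and sets accounted for 7.11% of its variance. Pex7, the receptor for thiolase and phytanoyl-CoA hydroxylase, had medians of 19.2, 21.2 and 17.3 CPM in 1+4, 2+5 and 3+6. It was higher in 2+5 than in 1+4 (log2 0.14, SE 0.06, edgeR adjusted p = 0.031) and lower in 3+6 than in 2+5 (log2 -0.29, SE 0.06, adjusted p = 9.3e-05). Its value in 3+6 against 1+4, log2 -0.15, became 0.02 with library totals. The call in 2+5 was lost in DESeq2 (adjusted p = 0.052) and, in edgeR, without 4 h replicate 4, 24 h replicate 1 or 24 h replicate 2 (adjusted p = 0.067, 0.052 and 0.12), without the filter on low counts (0.061), in numbers 4 to 6 alone (0.54) and with library totals (0.86), but not with library totals and no 24 h replicate 5.

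Genes of the export machinery moved in both directions. Pex2, a RING-type ubiquitin ligase subunit that marks receptors for export, had 39.9, 42.3 and 44.8 CPM in 1+4, 30.2, 32.4 and 33.2 in 2+5, and 26.3, 30.9 and 32.8 in 3+6. All libraries of 1+4 lay above the rest, with log2 -0.42 (SE 0.04, edgeR adjusted p = 5.3e-09) in 2+5 and -0.50 (SE 0.04, adjusted p = 7.6e-11) in 3+6. Pex10, its partner in the same ligase, showed another order, with medians of 11.5, 9.97 and 14.04 CPM. It was higher in 3+6 than in 2+5 by log2 0.50 (SE 0.07, adjusted p = 1.1e-06) and than in 1+4 by 0.29 (SE 0.07, adjusted p = 4.9e-04), although the ranges of the sets overlapped. Its lower value in 2+5 against 1+4 (log2 -0.21, adjusted p = 0.017) lost the call without 4 h replicate 5 or 24 h replicate 2 (adjusted p = 0.085 and 0.051).

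Pex6, an ATPase that pulls receptors out of the membrane, and Pex26, its membrane anchor, went opposite ways. Pex6 had medians of 38.4, 34.7 and 33.5 CPM and was lower by log2 -0.19 (SE 0.05, edgeR adjusted p = 0.0031) in 2+5 and -0.22 (SE 0.05, adjusted p = 4.3e-04) in 3+6. Pex26 had 9.54, 10.4 and 10.7 CPM in 1+4, 8.29, 13.5 and 15.4 in 2+5, and 11.6, 13.2 and 14.7 in 3+6. It was higher by log2 0.40 (SE 0.08, adjusted p = 5.7e-05) and 0.36 (SE 0.07, adjusted p = 1.5e-04). Only 3+6 was clear of 1+4, because 24 h replicate 5, the library rich in ribosomal RNA, held the lowest value in 2+5.

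Calls among the enzymes and transporters were mostly higher in 2+5 than in 1+4, except with library totals over all libraries, where 1 was higher and 1 lower. Of 16 tested, 9 were called higher and 4 lower in 2+5 against 1+4 (median log2 0.16), 4 higher and 7 lower in 3+6 against 1+4 (median -0.12), and 3 higher and 9 lower in 3+6 against 2+5 (median -0.21). With library totals and no 24 h replicate 5 the calls were 10 and 4, 6 and 2, and 3 and 8, with medians of 0.22, 0.04 and -0.11, so the direction of the median in 3+6 against 1+4 depends on the scaling. Their summed level was 917 ± 23.2 CPM in 1+4, 1332 ± 45.9 in 2+5 and 1023 ± 54.6 in 3+6 (SD, n = 6). Without Cat the sums were 634 ± 11.7, 686 ± 19.1 and 619.6 ± 29.6. Scaled to library totals without 24 h replicate 5, the sums without Cat were 635 ± 21.9 in 1+4, 716 ± 23.0 in 2+5 (n = 5) and 693 ± 24.6 in 3+6. All libraries of 3+6 (663 to 725) then lay above those of 1+4 (596 to 660). The order of 3+6 and 1+4 in this sum thus depends on the scaling. The ratio of summed peroxins to summed enzymes without Cat, in which scaling cancels, was 0.683 to 0.706 in 1+4, 0.553 to 0.573 in 2+5 and 0.558 to 0.597 in 3+6. Every library of 1+4 thus held more peroxin RNA per enzyme RNA than any of the other 12.

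**Figure D2:**
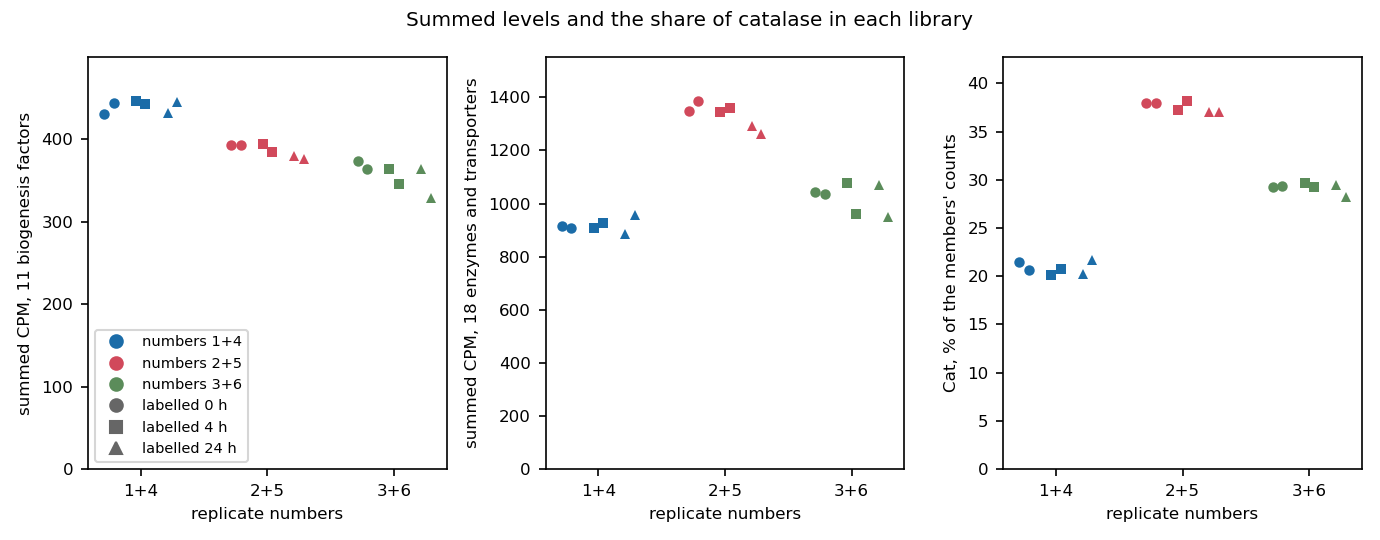
Summed CPM of the peroxins (left) and of the enzymes and transporters (middle), and Cat as a percent of the members' counts (right), in each library, grouped by number set with symbols for the labelled times. Peroxin sums are highest in numbers 1+4 (431 to 446), and Cat takes about 20 to 22%, 37 to 38% and 28 to 30% in the 3 sets. Scaled to library totals, which are not drawn, the peroxin sums of 1+4 (407 to 463) overlap those of 2+5 (162 to 413) and 3+6 (370 to 411).

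The fatty acid importers split. Abcd2, an ABC transporter of very long-chain acyl-CoA into peroxisomes (chromosome 15, 91145871 to 91191799), had 21.4, 23.0 and 26.97 CPM in 1+4, 27.7, 28.4 and 31.2 in 2+5, and 54.8, 58.4 and 63.3 in 3+6. The 3 ranges did not meet. The level in 3+6 was 2.52 times that in 1+4 (log2 1.33, SE 0.05, edgeR adjusted p = 2.8e-19) and 2.03 times that in 2+5 (log2 1.02, SE 0.05, adjusted p = 3.0e-16), and 2+5 was above 1+4 by log2 0.31 (SE 0.05, adjusted p = 7.6e-06). Abcd3, the related transporter of branched and dicarboxylic acyl-CoA, moved little, with medians of 124, 111 and 107 CPM. It was lower by log2 -0.16 (SE 0.03, adjusted p = 1.6e-04) and -0.22 (SE 0.03, adjusted p = 2.2e-06), the second of which fell to -0.06 and lost its call with library totals and no 24 h replicate 5. Within each library Abcd2 had 0.189 ± 0.0165 times the CPM of Abcd3 in 1+4, 0.263 ± 0.0133 in 2+5 and 0.549 ± 0.0338 in 3+6, a comparison free of scaling. Per length of annotated exons over all libraries, Abcd2 reached 6.22 ± 2.68 CPM per kb and Abcd3 17.2 ± 1.26.

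**Figure D3:**
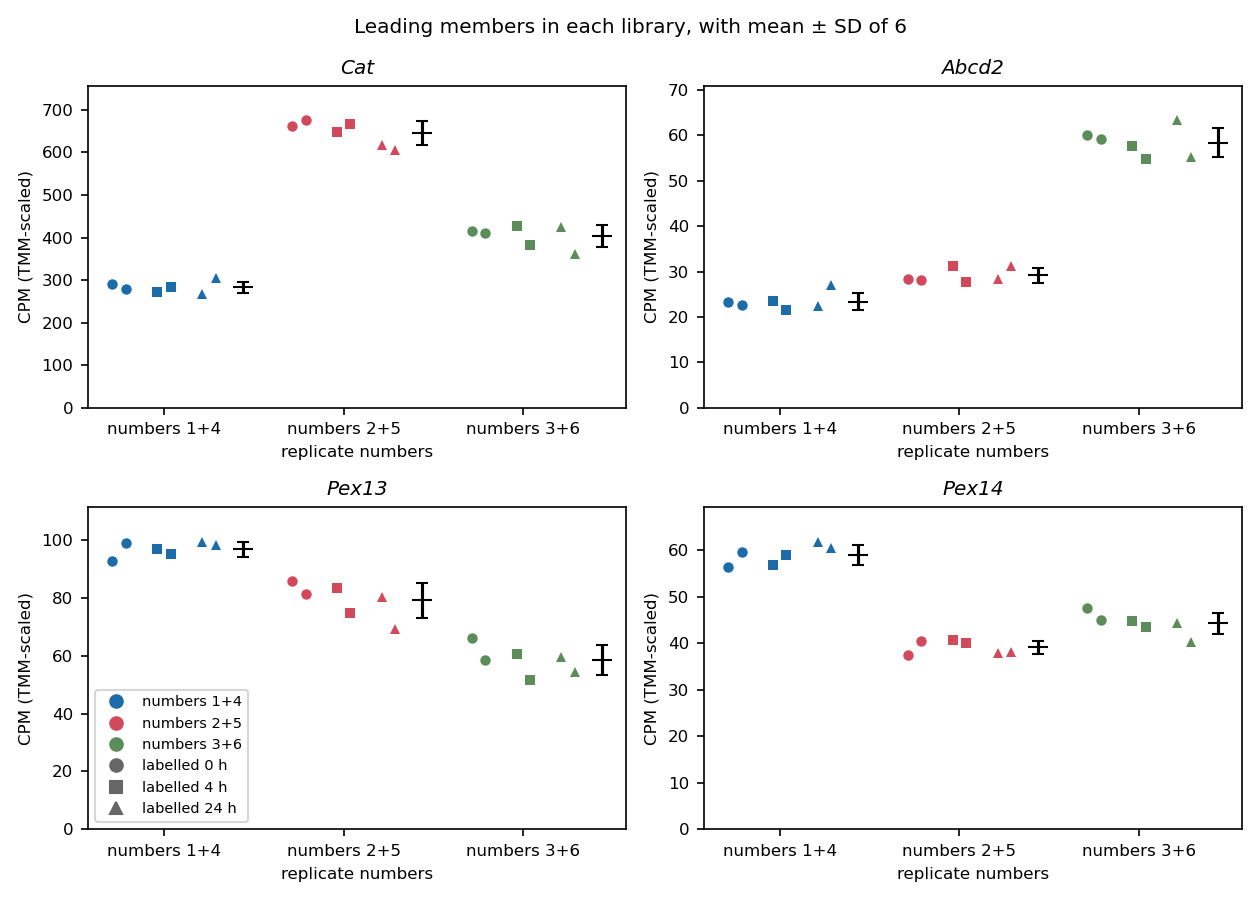
CPM of Cat, Abcd2, Pex13 and Pex14 in each library, by number set, with the labelled times side by side and the lower replicate number on the left of each pair. Black marks give the mean ± SD of 6 libraries, and the ranges by set run from 267 to 304, 607 to 675 and 361 to 427 for Cat and from 21.4 to 26.97, 27.7 to 31.2 and 54.8 to 63.3 for Abcd2.

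Of the enzymes of the oxidation spiral, the oxidase Acox3 and the thiolase Acaa1a were separate in all 3 sets. Acox3, which takes the first step on branched acyl-CoA and makes hydrogen peroxide (chromosome 5, 35583040 to 35615352), had 57.7, 59.1 and 61.2 CPM in 1+4, 78.9, 83.7 and 91.4 in 2+5, and 61.9, 65.0 and 71.2 in 3+6. The sets did not overlap and stood in the same order as those of Cat. Acox3 was higher by log2 0.52 (SE 0.04, edgeR adjusted p = 7.4e-12) in 2+5 and 0.16 (SE 0.04, adjusted p = 0.0010) in 3+6. Its level per length was 6.06 ± 0.997 CPM per kb of all annotated exons but 17.6 per kb of the longest transcript.

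The bifunctional enzymes take the next steps, hydration and dehydrogenation. Ehhadh, the form used for straight and dicarboxylic chains and a known PPARα target (chromosome 16, 21761287 to 21787807), was low, with 2.30, 3.56 and 3.86 CPM in 1+4, 2.65, 4.41 and 4.82 in 2+5, and 2.00, 2.55 and 2.83 in 3+6. These values rest on 8 to 107 counts per library, and the sets overlapped. It was higher in 2+5 than in 1+4 (log2 0.39, SE 0.13, edgeR adjusted p = 0.012) and lower in 3+6 than in 2+5 (log2 -0.78, SE 0.14, adjusted p = 1.8e-05). The lower value in 3+6 against 1+4 (log2 -0.39, adjusted p = 0.015) lost its call without 0 h replicate 4 or 24 h replicate 6 (adjusted p = 0.054 and 0.053). Hsd17b4, the form for branched chains, was far more abundant and steadier, with medians of 83.7, 96.1 and 81.1 CPM. It was higher in 2+5 than in 1+4 (log2 0.18, SE 0.04, adjusted p = 5.9e-04), and its lower value in 3+6 against 2+5 (log2 -0.17) turned to 0.09 with library totals and was -0.07, without passing, when 24 h replicate 5 was left out as well.

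Thiolases close each round of the spiral. Acaa1a, the main straight-chain thiolase (chromosome 9, 119339676 to 119350299), had 51.8, 55.2 and 58.7 CPM in 1+4, 47.1, 48.5 and 50.1 in 2+5, and 37.6, 40.3 and 43.6 in 3+6, with no overlap. It was lower by log2 -0.18 (SE 0.04, edgeR adjusted p = 3.1e-04) and -0.45 (SE 0.04, adjusted p = 9.3e-11) than in 1+4, and its value of -0.27 in 3+6 against 2+5 was 0.0025 with library totals over all libraries and -0.15, still past the threshold, with library totals and no 24 h replicate 5. Its near copy Acaa1b rose where it fell, from a median of 2.82 CPM in 1+4 to 4.40 in 2+5 (log2 0.49, SE 0.14, adjusted p = 0.0045) and 4.62 in 3+6 (log2 0.66, SE 0.13, adjusted p = 1.1e-04). Acaa1b shares 40.0% of its 31-base words with Acaa1a, and its counts were not whole in any library, so the division of reads between them is an estimate. Exons of Myd88 also overlap Acaa1a on the other strand.

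Scp2, whose longer product is the thiolase of branched chains and whose shorter one carries sterols, had medians of 121, 135 and 113 CPM and a pseudogene that shares 33.4% of its 31-base words. Its call in 2+5 against 1+4 (log2 0.14, SE 0.05, edgeR adjusted p = 0.038) was lost without any one of 7 libraries (0 h replicates 1, 2, 4 and 5, 4 h replicate 5, and 24 h replicates 1 and 2), with an adjusted p of at most 0.085. In 3+6 it was lower than in 2+5 by log2 -0.25 (SE 0.05, adjusted p = 5.0e-04), which became 0.01 with library totals and -0.16, still past the threshold, with library totals and no 24 h replicate 5.

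Auxiliary enzymes prepare unsaturated and branched chains. Ech1, a dienoyl-CoA isomerase of peroxisomes and mitochondria, had 80.6, 83.0 and 85.0 CPM in 1+4, 90.4, 96.9 and 102 in 2+5, and 66.1, 78.9 and 81.2 in 3+6. It was higher in 2+5 than in 1+4 (log2 0.23, SE 0.05, edgeR adjusted p = 1.8e-04) and lower in 3+6 than in 2+5 (log2 -0.35, SE 0.05, adjusted p = 6.3e-07), while its value in 3+6 against 1+4, log2 -0.12, became 0.03 with library totals. Decr2, the peroxisomal dienoyl-CoA reductase, had medians of 12.2, 9.24 and 10.9 CPM and was lowest in 2+5 (log2 -0.39, SE 0.07, adjusted p = 5.4e-05 against 1+4). Pecr, an enoyl-CoA reductase, had 2.55 to 4.33 CPM in all libraries. It passed only in 3+6 against 2+5 (log2 0.32, SE 0.13, adjusted p = 0.036), a call lost without any one of 7 libraries (0 h replicates 2, 3, 5 and 6, 4 h replicates 2 and 3, and 24 h replicate 3), with an adjusted p of at most 0.12.

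Phyh, the hydroxylase that starts breakdown of phytanic acid, had medians of 20.0, 21.4 and 16.1 CPM. All libraries of 3+6 lay below the other sets, by log2 -0.31 (SE 0.05, edgeR adjusted p = 2.5e-05) from 1+4 and -0.40 (SE 0.06, adjusted p = 8.0e-07) from 2+5. Amacr, the racemase that makes methyl-branched acyl-CoA fit for oxidation, had medians of 10.3, 10.5 and 10.2 CPM and passed in no comparison. Its log2 differences from 1+4 were 0.03 (95% interval -0.13 to 0.18) and -0.01 (-0.16 to 0.14).

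Shortened chains leave as carnitine esters or as free acids. Crot, carnitine octanoyltransferase, had 24.4, 25.7 and 27.04 CPM in 1+4, 30.8, 31.4 and 33.5 in 2+5, and 22.2, 23.2 and 25.0 in 3+6. All libraries of 2+5 lay above the rest, by log2 0.33 over 1+4 (SE 0.04, edgeR adjusted p = 2.5e-07), and 3+6 was below 2+5 by log2 -0.47 (SE 0.04, adjusted p = 4.4e-10). Against 1+4 the value in 3+6, log2 -0.14, became 0.02 with library totals. Acot8, a thioesterase that frees acids from acyl-CoA, had 8.05 ± 0.628, 6.84 ± 0.711 and 6.97 ± 0.512 CPM in the 3 sets (SD, n = 6) and was lower by log2 -0.27 (SE 0.08, adjusted p = 0.0048) and -0.21 (SE 0.07, adjusted p = 0.018), the second call being lost without 4 h replicate 3 or 4 (adjusted p = 0.084 and 0.067) and with library totals and no 24 h replicate 5. Exons of Snx21 overlap it on the other strand with a mean of 589 counts. Of the other thioesterases listed, Acot4 had counts in 11 of 18 libraries and Acot3 in 0.

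By labelled time the members hardly differed. Cat had 279, 413 and 675 CPM as lowest, median and highest value at 0 h, 272, 405 and 666 at 4 h, and 267, 393 and 618 at 24 h. Abcd2 had 22.7, 28.3 and 60.0 CPM at 0 h, 21.4, 29.4 and 57.7 at 4 h, and 22.4, 29.7 and 63.3 at 24 h. Labelled groups overlapped almost entirely, since each holds libraries of all 3 sets. Summed peroxins were 399.6 ± 31.8, 396 ± 40.96 and 388 ± 43.6 CPM, and summed enzymes 1106 ± 210.3, 1096 ± 207 and 1070.1 ± 171 (SD, n = 6). The members' log2 differences lay between -0.06 and 0.15 at 4 h against 0 h, between -0.11 and 0.10 at 24 h against 0 h, and between -0.14 and 0.09 at 24 h against 4 h. With edgeR 0 of 27 passed in each, as did 0% of all genes, and at an unadjusted p under 0.05 stood 0, 0 and 0 members and 173, 158 and 137 of all 14788 genes. DESeq2 and limma-voom also called 0 members and had 0 of them at an unadjusted p under 0.05.

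Comparing libraries within a replicate number narrowed the intervals without adding a call. With the number as a replicate block 0 members passed in any of the 3 comparisons, beside 0.00676% of all genes at 24 h against 0 h. The blocked log2 difference of Cat was -0.03 at 4 h (95% interval -0.11 to 0.05) and -0.07 at 24 h (-0.14 to 0.01), and that of Abcd2 -0.03 (-0.13 to 0.06) and 0.03 (-0.07 to 0.12). Pex3 was lower at 24 h than at 0 h in all 6 numbers, from 26.9 ± 1.61 to 24.8 ± 1.66 CPM, with a blocked log2 value of -0.10 (SE 0.04, unadjusted p = 0.022, edgeR adjusted p = 0.54), which did not pass. Pex2 and Pex3 were the members with an unadjusted p under 0.05 at 24 h against 0 h, and Pex2 the member at 24 h against 4 h. That is 7.41% and 3.70% of the members tested, beside 7.81% and 5.12% of all genes, so neither stands out. Whether the labelled times differed more in one set than in another was tested as an interaction in edgeR. It was called for 0 members and 0% of all genes. At an unadjusted p under 0.05 stood 415 of all genes and, of the members, Acaa1b alone. Its interaction had an edgeR adjusted p of 1.00.

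**Figure D4:**
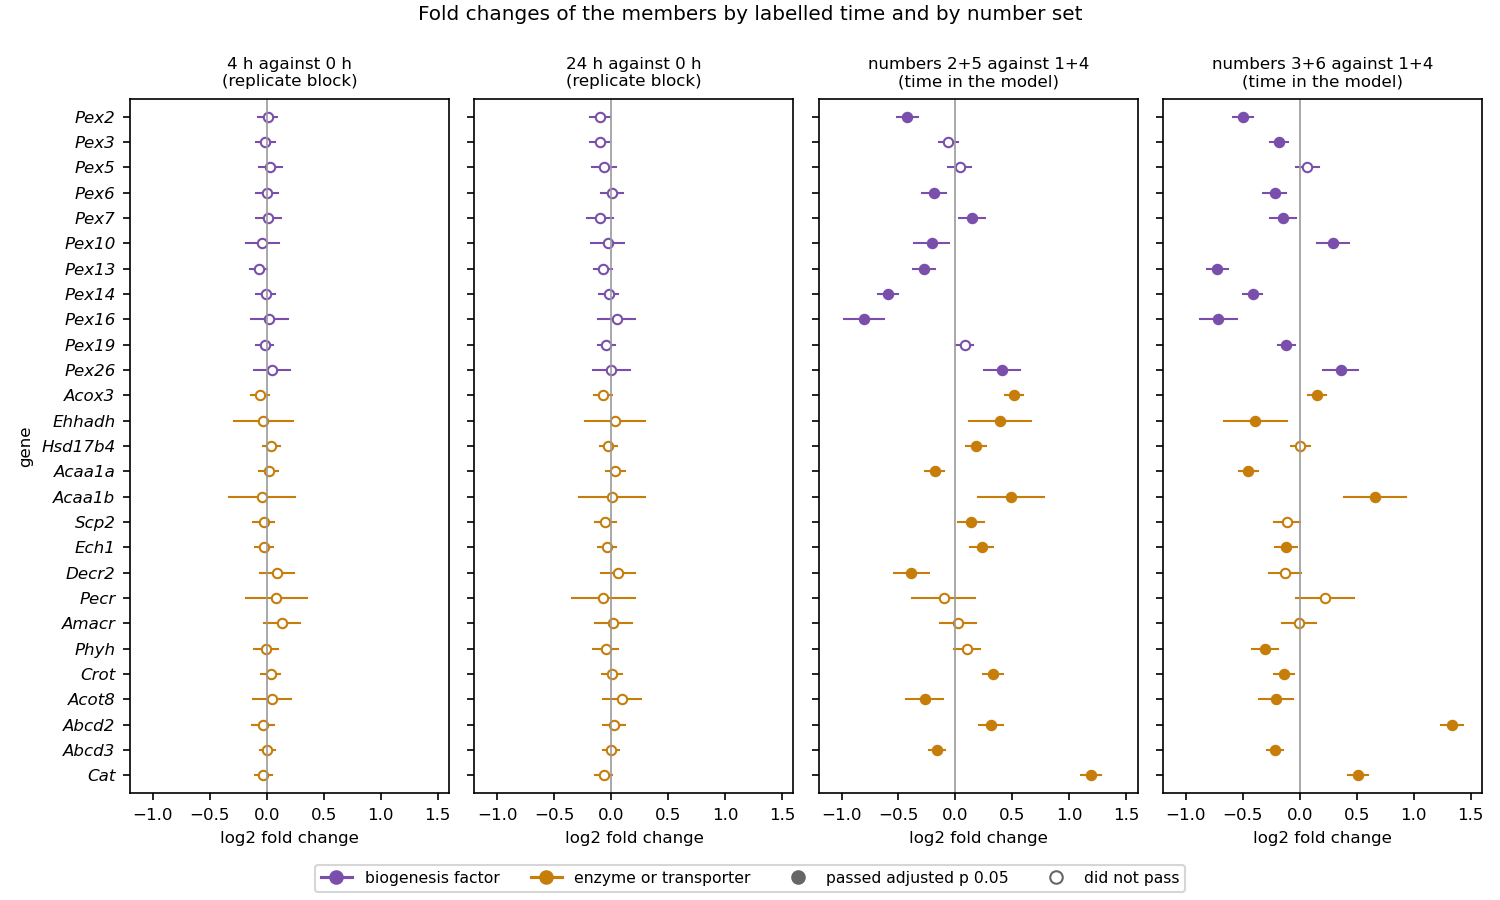
Log2 fold changes of the 27 members tested with 95% intervals, at 4 h and 24 h against 0 h with the replicate block and in numbers 2+5 and 3+6 against 1+4 with time in the model. Filled points passed an adjusted p of 0.05, which 0 members did by time, and by set the values run from -0.81 for Pex16 to 1.33 for Abcd2.

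The sets were also fitted with numbers 1 to 3 alone and with numbers 4 to 6 alone, which lost 8 and 14 of the 60 calls. Numbers 3 apart had been joined because they were alike, so likeness of these 2 fits was built in and is no repeat. Of 14662 genes, 86.0% had the same sign in both fits in 2+5 against 1+4. The share was 82.3% in 3+6 against 1+4 and 81.1% in 3+6 against 2+5. Cat was higher in 2 than in 1 by log2 1.22 and in 5 than in 4 by 1.16. Abcd2 was higher in 3 than in 1 by 1.38 and in 6 than in 4 by 1.26. Other members were less even: Ehhadh was -0.11 in 3 against 1 and -0.68 in 6 against 4, and Ech1 -0.03 and -0.25.

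Among 58 other peroxisomal genes, 46 passed the filter. Of these 11 were called higher and 16 lower in 2+5 against 1+4. In 3+6 it was 7 and 25 against 1+4, and 5 and 17 against 2+5. The median log2 values were -0.04, -0.14 and -0.06. In either direction 58.7%, 69.6% and 47.8% were called, beside 59.5%, 59.7% and 57.1% of all genes. Pex11a, which drives elongation and division of peroxisomes, had 63.2 ± 1.65 CPM in 1+4, 31.9 ± 2.58 in 2+5 and 33.6 ± 2.52 in 3+6 (SD, n = 6), log2 -0.99 (edgeR adjusted p = 1.2e-15) and -0.90 (adjusted p = 2.8e-15). Its high set was thus that of Pex14 and Pex16. Ephx2, a soluble epoxide hydrolase, was higher in 2+5 (log2 0.96) and 3+6 (1.03), and Far1, which makes fatty alcohols for ether lipids, in 3+6 (0.35), with 35.5 ± 2.29 CPM in 1+4, 47.6 ± 1.86 in 2+5 and 45.5 ± 2.59 in 3+6. Hacl1, the lyase after phytanic acid hydroxylation, was higher in 2+5 (0.53). Phyhd1, a relative of Phyh, was lower in 3+6 (-0.85 against 1+4 and -1.18 against 2+5), as was the phospholipase Pnpla8 (-0.66 against 2+5). Higher in 3+6 than in 2+5 were the acyl-CoA binding protein Acbd4 (0.23) and the peroxisomal carrier Slc25a17 (0.19).

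Mitochondrial β-oxidation, the parallel pathway, had 22 genes, all tested. Of them 10 were called higher and 4 lower in 2+5 against 1+4. In 3+6 it was 3 and 10 against 1+4, and 1 and 14 against 2+5. In either direction 63.6%, 59.1% and 68.2% were called, beside 59.5%, 59.7% and 57.1% of all genes. The medians were 0.06, -0.09 and -0.23, beside 0.16, -0.12 and -0.21 for the peroxisomal enzymes. Whether the pathways differed was not tested. Of 14 regulators of the PPAR axis, 6 were called higher and 7 lower, 3 and 4, and 6 and 4 (92.9%, 50% and 71.4% in either direction). Ppara, the receptor known to drive peroxisomal oxidation genes, had 20.4 to 24.3 CPM in 1+4, 26.5 to 32.3 in 2+5 and 39.0 to 48.8 in 3+6, without overlap (log2 0.45 and 0.97 from 1+4, edgeR adjusted p = 1.6e-07 and 8.1e-15). By mean CPM the sets stood in that order for Abcd2, Acaa1b, Pex5 and Pex26 and in other orders for the remaining members tested. Of these 4, only Abcd2 had 3 sets without overlap. Pex5 passed in no comparison, and the Pex26 means in 2+5 and 3+6 were 13.05 and 13.11 CPM. The share of all genes in that order was not counted, and a link to Ppara was not tested. Pparg, the adipocyte receptor, had 133 ± 4.00, 142 ± 11.7 and 130.4 ± 7.77 CPM, and Ppargc1a, a coactivator, 132 ± 4.48, 113 ± 5.68 and 131 ± 6.68.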

How the data were processed

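RNA of 18 libraries in 3 groups of 6 was analysed. The deposited values are expected counts per gene from salmon, per the labels and the table itself. Per the submitters' processing notes the build was mm10, with edgeR and limma as tools. Salmon's version, its annotation and its strand option were not given in the sources used here. Expected counts were rounded. filterByExpr of edgeR (minimum count 10, total 15) left 14788 genes, scaled by TMM and tested with robust quasi-likelihood F-tests, two-sided, Benjamini-Hochberg threshold 0.05 over all of them. Models held time, time and number set, time and number as a block, or time by set. SE and 95% intervals come from these models. Log2 CPM used a prior count of 2. Alternatives were DESeq2, limma-voom, other scaling, no filter, parts of the libraries and leaving out each library. Software was Python 3.11.15 (pandas 2.3.3, matplotlib 3.10.9) and R 4.3.3 with DESeq2 1.42.0, edgeR 4.0.16 and limma 3.58.1. The time, block and set models were also run on simulated counts. Changes were planted only in genes with more counts, and were larger than any member showed by labelled time. That run is not used as support for the results here.

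Members, number sets and lists were chosen with earlier results of these data known. Named were all 29 members, 5 fixed regulators and, per set comparison, the 2 most raised and 2 most lowered other peroxisomal genes (called, mean log2 CPM of at least 3). Of these, 1 gene is not reported here. Libraries of the same number at different times deviated together (r 0.297 to 0.718 in 18 pairs, bound 0.1), those with numbers 3 apart also (0.237 to 0.688), other numbers did not (median -0.27 in 72 pairs). The pairing comes from the numbers in the titles. Positions and exon lengths are from GENCODE M21 (mm10), promoters from RefSeq.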

Additional observations from a re-analysis of the deposited data

Results flagged for a closer look

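Within labelled times and number sets, 162 groups of 6 values were searched for a highest or lowest library far from the rest. Such a library was found in 5 groups (3.09%). The cut-off used is meant to flag about 1 in 20 groups whose values come from a single population. That rate does not hold here, because labelled times mix the number sets and every library was searched both by time and by set. The share found is therefore not compared with chance. In each of the 5 groups the library was the lowest of its 6. Pex7 had 17.6 CPM in 24 h replicate 1, the next value in numbers 1+4 being 19.0, and 14.003 in 24 h replicate 6, with 17.1 next in 3+6. Pex26 had 8.29 CPM and Ehhadh 2.65 in 24 h replicate 5, the library rich in ribosomal RNA, with 12.9 and 3.97 next in 2+5. Scp2 had 94.1 CPM in 4 h replicate 6, with 122 next among the 4 h libraries.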

How the results depend on the processing

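By labelled time 0 members were called under the alternatives run, and with the replicate block 0 in each of the 3 comparisons, where over all genes 1 was called at 24 h against 0 h. The interaction was refitted with library totals and without the filter, and called 0 members in both and 8 and 302 of all genes. Leaving out 1 library gave 19 to 22, 19 to 22 and 17 to 18 members in 2+5 against 1+4, 3+6 against 1+4 and 3+6 against 2+5, beside 21, 21 and 18. Over the single called members DESeq2, limma-voom, RLE size factors, no filter and no time term reversed 0 and lost at most 2 of 60, numbers 1 to 3 alone lost 8 and numbers 4 to 6 alone 14. Library totals changed most: 5 members were called (1 higher, 4 lower), 7 (5 and 2) and 6 (5 and 1), with the median of all genes moved by -0.09, 0.17 and 0.25. In 3+6 against 1+4 they reversed Pex19 (0.0452), Crot (0.0246), Pex7 (0.0178) and Ech1 (0.0311), and in 3+6 against 2+5 Pex19 (0.0707), Pex3 (0.14), Hsd17b4 (0.0948), Scp2 (0.0121) and Acaa1a (0.0025). Without 24 h replicate 5 as well, 23, 15 and 17 were called, and Pex19 (0.041), Crot (0.0131), Pex7 (0.0091) and Ech1 (0.0326) were reversed in 3+6 against 1+4, while in 3+6 against 2+5 none of the 5 was: Pex19 (-0.083), Pex3 (-0.015) and Hsd17b4 (-0.071) did not pass, and Scp2 and Acaa1a did. Using the longest transcript as length changed the level per kb of 19 of 27 members by more than their SD. Depth limits Ehhadh, Acaa1b and Pecr, which had as few as 8, 9.02 and 12 counts in a library.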
